A study of Mus musculus with 8 samples.

Results

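Distal regions that were open in every condition were studied in BV2 cells, an immortalised line of mouse microglia, the resident macrophages of the brain. Peaks of 8 lists, called separately in 8 ATAC-seq libraries, were merged where they overlapped on chromosomes 1 to 19 and X. A region was kept when it was at most 10 kb wide, held a peak by at least 1 bp in all 8 lists, and lay more than 1 kb from both ends of every annotated gene. Of 40770 merged regions, 2731 met this rule and are called constitutive distal regions here. They were chosen by the peak calls themselves, so their presence in every list is not a finding. The rule also has no member that lost its peak in any condition, so the values below cover only movement among called peaks.

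ATAC-seq uses the Tn5 transposase to place sequencing adapters in open chromatin. BV2 cells grew alone (monoculture) or on top of a layer of GL261 mouse glioma cells (co-culture), and were then held for 16 h at 21% oxygen (normoxia) or at less than 0.1% oxygen (hypoxia). Each of the 4 groups (monoculture normoxia, monoculture hypoxia, co-culture normoxia and co-culture hypoxia) had 2 libraries, described as biological replicates. No group carried a genetic change by the labels. All hypoxic cells were fixed with formaldehyde before they returned to air, and cells carrying CD45, a surface protein of leukocytes, were sorted before transposition. A cell line is a limited model of microglia, and in co-culture the sort on CD45 is what separated the lines. The design asks how low oxygen and glioma cells each act on chromatin of microglial cells, and whether the oxygen response depends on the glioma cells.

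Open chromatin away from gene starts is where most enhancers lie. In macrophages such sites are typically held open by lineage factors such as PU.1, C/EBP and RUNX proteins, and stimulus-dependent factors such as AP-1, NF-kB, interferon regulatory factors and the hypoxia-inducible factors then bind many of them. A gene named below is the nearest protein-coding gene, which need not be the gene that a region controls.

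The lists held 9910 to 29658 peaks. The shortest belonged to monoculture normoxia replicate 2 and limited the set most: of 2064 distal regions found in exactly 7 lists, 1234 lacked a peak in that library and 431 in monoculture normoxia replicate 1. Of 27 microglia and macrophage marker genes, 4, 8, 14 and 12 had a peak at a gene end in monoculture normoxia replicates 1 and 2 and monoculture hypoxia replicates 1 and 2. In co-culture the same count was 15, 15, 13 and 13. Spi1, the gene of PU.1, had no peak at a gene end in monoculture or in co-culture normoxia replicate 1 and co-culture hypoxia replicate 2. Of 24 glioma and glial genes, none had such a peak in any of the 4 monoculture libraries, and 3 or 4 did in each co-culture library, drawn from Sox2, Postn, Nes, Cdh2, Slc1a3 and S100b.

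The median width of the regions was 928 bp (437 to 5770 bp). The highest summits of the 8 lists lay within a median of 147 bp of each other (5 to 4573 bp), a spread that the width of a region limits. Of the 2731 regions, 1521 (55.7%) lay inside a protein-coding gene, 1012 (37.1%) lay between genes and 198 (7.25%) lay inside another kind of gene only. Among 25537 distal regions missing from at least 1 list, the shares were 53.5%, 38.8% and 7.7%. Exons and introns were not told apart here, and the 95 regions on chromosome 18 were not searched for starts inside genes. The median distance to the nearest gene end was 10940 bp, with quartiles of 4733 and 26200 bp. Distal regions were a smaller share of regions the more lists held them, from 84.6% of regions in 1 list to 43.2% of regions of that width in all 8.

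The 2731 regions had 1966 different nearest coding genes and were mostly isolated. When neighbouring regions were chained at the distance commonly used to stitch super-enhancers, 2418 stood alone and 15 chains held 3. The 5 shortest of these lay near Arhgap10, Tomm20, Maf, Atg4c and Ago2. Adgrl2, Slc39a11, Chd9 and Zfhx3 were each the nearest coding gene of 8 regions, the highest number. Slc39a11 encodes a zinc transporter, Chd9 a chromatin remodeller and Zfhx3 a homeodomain transcription factor. By chromosome, the regions were 3.45% of all merged regions on chromosome 10 and 8.8% on chromosome 8.

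Although every region lay over 1 kb from gene ends, 226 of the 2636 searched regions (8.57%) overlapped the window of an annotated RefSeq transcript start, from 250 bases before it to 50 after. In 221 of them the start base itself lay in the region. The nearest such start lay a median of 90 bp from the summit. For 7 of them that are named below, the 250 bases before the start are printed. Bclaf1, Zfp341 and Tef are among 22 regions with such a window that ranked higher in co-culture, as did 9.26% of all regions called in every list. Osbpl2 is among the 10 regions of highest minimum percentile, Dctd and Smim10l1 are among the regions lower in hypoxia, and Pfkfb4 is a hypoxia target gene. The windows of Add3, Mesd and Gm34907 (nearest Scel), regions also named below, held no match to the searched letters and are not printed. Sequences are from RefSeq (GRCm38.p6), written 5′ to 3′, with capitals at matches to the searched letters.
Bclaf1, chr10:20312219-20312468, plus strand: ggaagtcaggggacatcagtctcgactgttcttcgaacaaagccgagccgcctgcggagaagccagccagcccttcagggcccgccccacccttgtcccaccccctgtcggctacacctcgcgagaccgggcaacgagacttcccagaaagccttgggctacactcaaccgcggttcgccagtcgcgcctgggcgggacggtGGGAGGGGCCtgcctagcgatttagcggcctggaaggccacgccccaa
Zfp341, chr2:154613118-154613367, plus strand: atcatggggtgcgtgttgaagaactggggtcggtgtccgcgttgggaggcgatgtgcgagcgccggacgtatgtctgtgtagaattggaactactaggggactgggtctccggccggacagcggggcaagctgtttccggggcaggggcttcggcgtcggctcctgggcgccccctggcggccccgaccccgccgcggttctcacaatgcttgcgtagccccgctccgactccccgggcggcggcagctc
Tef, chr15:81811164-81811413, plus strand: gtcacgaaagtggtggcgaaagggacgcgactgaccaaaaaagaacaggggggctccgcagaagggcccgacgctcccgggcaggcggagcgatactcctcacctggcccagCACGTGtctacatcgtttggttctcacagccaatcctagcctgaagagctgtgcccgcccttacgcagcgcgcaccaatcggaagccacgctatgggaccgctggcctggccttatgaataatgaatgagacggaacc
Dctd, chr8:48109708-48109957, plus strand: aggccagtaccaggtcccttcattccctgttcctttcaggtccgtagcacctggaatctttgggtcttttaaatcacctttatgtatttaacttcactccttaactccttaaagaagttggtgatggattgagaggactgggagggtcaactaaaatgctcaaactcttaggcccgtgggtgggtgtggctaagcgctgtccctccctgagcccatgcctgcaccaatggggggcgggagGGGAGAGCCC
Smim10l1, chr6:133104989-133105238, plus strand: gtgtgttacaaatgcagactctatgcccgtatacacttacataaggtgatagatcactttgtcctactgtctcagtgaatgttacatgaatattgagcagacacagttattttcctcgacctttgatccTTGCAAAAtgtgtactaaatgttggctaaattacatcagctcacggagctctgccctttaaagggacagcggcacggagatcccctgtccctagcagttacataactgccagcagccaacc
Pfkfb4, chr9:108991652-108991901, plus strand: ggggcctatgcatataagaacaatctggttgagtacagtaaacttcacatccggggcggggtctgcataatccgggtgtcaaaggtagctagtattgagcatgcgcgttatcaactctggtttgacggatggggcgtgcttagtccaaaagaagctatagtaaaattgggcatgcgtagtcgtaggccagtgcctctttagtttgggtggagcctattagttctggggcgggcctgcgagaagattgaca
Osbpl2, chr2:180119056-180119305, plus strand: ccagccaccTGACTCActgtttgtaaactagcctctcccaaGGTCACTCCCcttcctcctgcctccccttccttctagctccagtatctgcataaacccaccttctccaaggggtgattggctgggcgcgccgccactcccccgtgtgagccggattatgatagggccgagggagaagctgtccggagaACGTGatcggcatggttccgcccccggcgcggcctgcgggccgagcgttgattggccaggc

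The capitals mark letters that match NF-kB in Bclaf1 and Dctd, C/EBP in Smim10l1, and the E-box in Tef, which contains the HIF core on both strands. In Osbpl2 they mark AP-1, NF-kB and HIF core letters, and the Zfp341 and Pfkfb4 windows held none. Letters were searched on both strands in 269 such windows and in 32585 RefSeq start windows of the same length. The HIF core ACGTG, the letters common to hypoxia response elements, was in 58 of 269 windows (21.6%) against 16.7% of all windows. The E-box CACGTG, which overlaps it, was in 6.32% against 6.06%. AP-1 letters TGANTCA were in 7.06% against 6.78%, and NF-kB letters (GGGA, any 4 bases, CC) in 19.3% against 17.8%. C/EBP letters TTGCNNAA were in 5.95% against 9.62%, RUNX letters TGTGGTT in 2.97% against 4.41%, PU.1 letters GAGGAAGT in 1.86% against 2.46%, and IRF letters (GAAA, any 2 bases, GAAA) in 0.743% against 2.98%. GC content was 59.3% against 53.3%. These windows cover only the regions at an annotated start, so they say nothing of the other distal regions.

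Within each list, peaks were ranked by the authors' −log10 p, the height of evidence over that library's own background. A percentile of 90 then means that 90% of that list's peaks ranked lower or equal. The median percentile of the 2731 regions was 66.3 and 62.0 in monoculture normoxia, 80.4 and 82.0 in monoculture hypoxia, 76.6 and 72.9 in co-culture normoxia, and 75.2 and 63.0 in co-culture hypoxia. The regions ranked in the upper part of each list, which the rule favours, since weak peaks of longer lists often lack a peak in the shortest. Gene-end regions called in all 8 lists likewise had medians of 68.1 to 87.2. The 2 shortest lists gave the 2 lowest monoculture medians. Such percentiles move with list length, since weak peaks fill the bottom of a longer list. Over the 8 lists, 78 regions never fell below the 90th percentile and 151 fell below the 10th in at least 1 list.

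The 10 regions with the highest minimum percentile lay nearest Lrrc4c, Myo3a, Gm2244, Pex2, Add3, Filip1l, Alkbh8, Osbpl2, Mesd and Gpam, and each stayed at 98.96 or above in every list. The region nearest Lrrc4c (chr2:98662516-98667301) stayed at 99.99 or above, with an authors' −log10 p of 1296 to 3009 but a fold enrichment of 6.8 to 9.18. The region nearest Alkbh8 (chr9:3023477-3027310) ranged from 99.85 to 99.97. Both lie in stretches of the mouse genome that are known to collect excess reads from satellite repeats, and no exclusion list was used here. The regions nearest Gm2244, Myo3a, Pex2 and Filip1l reached a −log10 p of 1690, 1461, 1232 and 1097. At Add3, Osbpl2, Mesd and Gpam the highest was 461. Whether regions other than those nearest Lrrc4c and Alkbh8 lie in such stretches was not checked. Add3 (chr19:53142082-53142992), inside the gene of a membrane skeleton protein, ranged from 99.9 to 99.96, and Osbpl2 (chr2:180118614-180119765), inside the gene of an oxysterol-binding protein, from 99.31 to 99.9. Both hold an annotated internal start.

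The regions named next to the 1 kb limit had overlapping percentiles on both sides of it, which says nothing of the sets as a whole. Just inside it, the region nearest Nuf2 (chr1:169368220-169369274, 1009 bp from a gene end) had percentiles of 52.1 to 90.4. Just outside, the region nearest Clec12b (990 bp) had 55.3 to 94.97 and the region nearest Gm39173 (971 bp) had 51.8 to 93.3. The 5 regions farthest from any gene lay 296025 to 472660 bp from a gene end, near Pcdh10, Zfat (2 regions) and Astn2 (2 regions, inside the coding gene). Their minimum percentiles were 45.7, 29.1, 68.8, 44.3 and 4.61.

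To compare libraries, each region was ranked only among the 6372 regions called in all 8 lists, 3593 of which were regions of the same width limit at gene ends. A rank percentile here is the percentile within that common set. On this scale the median of the distal regions was 46.1 and 45.8 in monoculture normoxia, 50.0 and 51.6 in monoculture hypoxia, 40.5 and 34.4 in co-culture normoxia, and 39.5 and 33.9 in co-culture hypoxia. All 4 co-culture libraries were below all 4 monoculture libraries. The gene-end regions stood above the distal regions by 7.5 and 7.8 points in monoculture normoxia and by 0.3 and −3.2 in monoculture hypoxia. In co-culture they stood above them by 18.1 and 27.9 points in normoxia and by 20.7 and 30.3 in hypoxia.

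**Figure D1:**
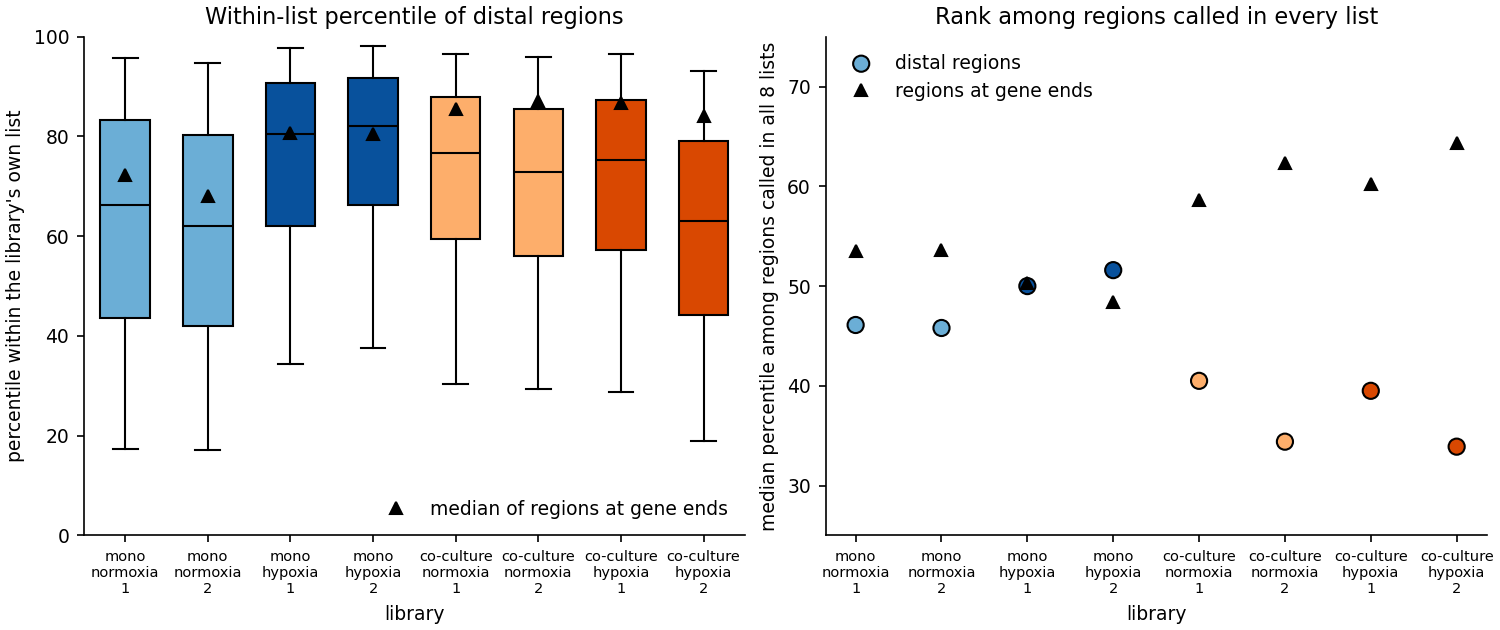
Left, boxes give the within-list percentile of the 2731 distal regions in each library (line, median; box, quartiles; whiskers, the 5th to 95th percentile of regions) and triangles the median of regions at gene ends. Right, points give the median percentile among the 6372 regions called in all 8 lists; distal medians lie between 45.8 and 51.6 in monoculture and between 33.9 and 40.5 in co-culture.

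Differences were tested on normal scores of these ranks with limma, with Benjamini-Hochberg adjustment over all 6372 regions. A score difference of 1 is 1 standard deviation of the ranked regions, and an adjusted p under 0.05 is called higher or lower. Scores are relative, so a region falls when others rise past it.

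Oxygen moved individual distal regions in both directions, with little shift of the set as a whole. In hypoxia 226 regions (8.28%) ranked higher, against 8.49% of all 6372 regions, and 164 (6.01%) ranked lower, against 8.79% of all. The median score difference was 0.031 for distal regions and −0.003 for all. In 122 of the higher (4.47% of distal regions, against 3.86% of all) and 67 of the lower regions (2.45%, against 4.9% of all), the 4 hypoxic libraries did not overlap the 4 normoxic ones. The count of higher regions was 89 without co-culture hypoxia replicate 1, 140 without co-culture hypoxia replicate 2, 120 without co-culture normoxia replicate 2, 92 without monoculture hypoxia replicate 1 and 95 without monoculture hypoxia replicate 2. The count of lower regions was 102, 89, 91, 63 and 91 without the same libraries, and 247 without monoculture normoxia replicate 1. With the authors' fold enrichment ranked in place of −log10 p, the counts fell to 20 and 10.

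The hypoxia-higher regions with the largest score differences and no overlap lay nearest Lilr4b, Chd5, Ltbp2, Rnf150, Dyrk2 and Mbd2. The region inside Chd5 (chr4:152353746-152354695), the gene of a chromatin remodeller, had rank percentiles of 25.72 and 13.97 in monoculture normoxia and 8.87 and 4.68 in co-culture normoxia. It had 76.5 and 70.9 in monoculture hypoxia and 82.4 and 70.6 in co-culture hypoxia. Every hypoxic library was thus well above every normoxic one, and the score difference was 1.88 ± 0.258 (SE; limma adjusted p = 4.55e-05).

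The region inside Mbd2 (chr18:70587609-70588453), whose protein binds methylated CpG, had 26.2 and 22.4 in monoculture normoxia, 1.22 and 7.49 in co-culture normoxia, 75.9 and 73.5 in monoculture hypoxia and 72.3 and 58.9 in co-culture hypoxia. Its normoxic libraries again lay far below the hypoxic ones, with a difference of 1.81 ± 0.271 (SE; limma adjusted p = 9.03e-05). The region inside Ltbp2 (chr12:84854655-84855491), the gene of an extracellular matrix protein, had 7.86, 2.35, 6.37 and 0.09 in normoxia (monoculture first), 57.9 and 62.0 in monoculture hypoxia and 39.3 and 19.1 in co-culture hypoxia. The 4 normoxic libraries placed it near the bottom of the common set, and the hypoxic ones spread widely above them.

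The intergenic region nearest Lilr4b (chr10:51422392-51422920), the gene of an inhibitory receptor of leukocytes, had 12.1, 0.09, 1.4 and 0.11 in normoxia against 32.9, 34.6, 34.5 and 30.1 in hypoxia, in the same order. It had the largest score difference of the called and separated regions, 1.96 ± 0.394 (SE; limma adjusted p = 0.00148). In Rnf150 (chr8:82916703-82918239) normoxic libraries had at most 17.5 and hypoxic ones at least 43.6, and 145271 bp from Dyrk2, the gene of a protein kinase (chr10:118709371-118710331), at most 24.6 and at least 41.0. All 6 kept their call when any library was left out. With fold enrichment ranked, Lilr4b and Mbd2 passed, while Chd5, Ltbp2, Rnf150 and Dyrk2 did not (limma adjusted p = 0.0888, 0.0716, 0.086 and 0.051).

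The hypoxia-lower regions with the largest differences lay nearest Enpp7, Fbxl17, Smim10l1, Dctd, Tomm20 and Nup160. The region inside Dctd (chr8:48109566-48110855), the gene of deoxycytidylate deaminase, holds the internal start printed above, 47 bp from its summit. It had rank percentiles of 86.3 and 90.8 in monoculture normoxia, 81.5 and 89.9 in co-culture normoxia, 59.0 and 53.8 in monoculture hypoxia and 31.1 and 27.0 in co-culture hypoxia. The 4 normoxic libraries lay above all hypoxic ones, with a difference of −1.34 ± 0.209 (SE; limma adjusted p = 0.000148).

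The region inside Smim10l1 (chr6:133104879-133105949), also with a printed internal start, had 71.6 and 69.3 in monoculture normoxia and 33.0 and 65.7 in co-culture normoxia, against 9.4, 29.3, 6.37 and 16.6 in the hypoxic libraries. Its lowest normoxic value lay close to its highest hypoxic one. The region inside Nup160 (chr2:90678788-90679775), a nuclear pore gene, had 69.9, 48.3, 81.5 and 71.4 in normoxia and 11.1, 13.5, 27.6 and 33.3 in hypoxia, a clear gap in both cultures. The region 6593 bp from Enpp7 (chr11:118980511-118981588), which encodes an intestinal sphingomyelinase, had at most 6.34 in hypoxia and at least 15.0 in normoxia. The region inside Fbxl17 (chr17:63374121-63375326), an F-box protein gene, had at most 19.7 and at least 29.2. The region 103454 bp from Tomm20 (chr8:126826091-126827210), a mitochondrial import receptor gene, had at most 22.4 and at least 35.1. Of these 6, the region near Tomm20 lost its call without monoculture hypoxia replicate 1 (limma adjusted p = 0.0592). With fold enrichment ranked, Enpp7 and Fbxl17 passed and the other 4 did not (limma adjusted p from 0.0684 to 0.201).

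**Figure D2:**
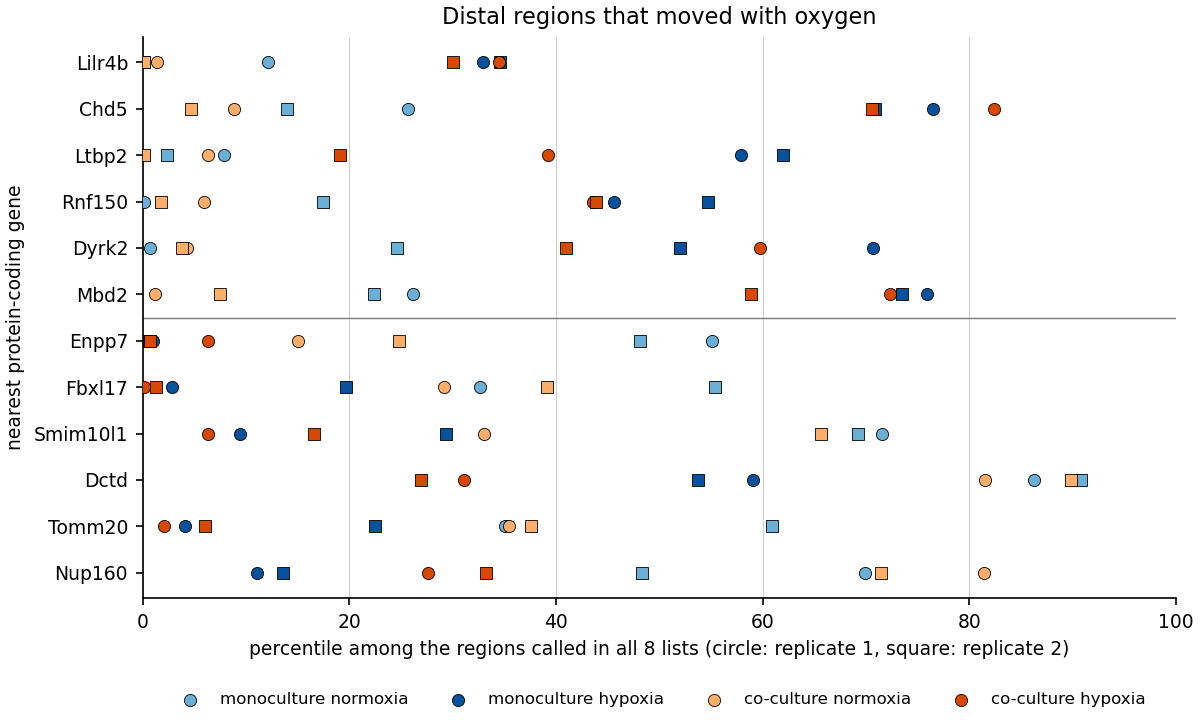
Each row is a distal region named by its nearest coding gene, and each symbol is the percentile of that region in 1 library among the 6372 regions called in all 8 lists. In the upper 6 rows the hypoxic libraries (dark) lie right of the normoxic ones (light), and in the lower 6 rows left of them; for Dctd the normoxic libraries are at 81.5 to 90.8 and the hypoxic ones at 27.0 to 59.0.

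Regions near genes of 7 lists were then described by role, first the HIF targets. Of 38 hypoxia target genes, 13 were the nearest coding gene of 17 distal regions, of which 4 ranked higher in hypoxia, none lower and 13 did not pass the test (median score difference 0.234, against −0.003 for all regions, of which 8.49% were higher). The 4 were nearest Ldha, P4ha2, Ndrg1 and Hk1, and these and the other called regions of listed genes below are named because they were called, after their values were seen. The region 2506 bp from Ldha (chr7:46838254-46839768), the gene of lactate dehydrogenase A, had rank percentiles of 9.09 and 19.7 in monoculture normoxia, 15.2 and 8.43 in co-culture normoxia, 45.9 and 58.6 in monoculture hypoxia and 59.7 and 60.6 in co-culture hypoxia. Its 2 sets of libraries did not overlap in either culture, the difference was 1.31 ± 0.273 (SE; limma adjusted p = 0.00194), and the call held when any library was left out. P4ha2 encodes a collagen prolyl hydroxylase, Ndrg1 a stress-response protein and Hk1 a hexokinase. Their differences were 1.01, 0.766 and 0.987, and these calls remained in 2, 3 and 2 of the 8 fits with a library left out. The call at Hk1 did not pass among distal regions alone (limma adjusted p = 0.059).

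Other hypoxia targets had distal regions with high ranks and no oxygen call. The region inside Pfkfb4 (chr9:108991438-108992034), the gene of a glycolysis-regulating kinase and phosphatase, ranked at 94.9 to 98.1 in the 8 libraries, with a difference of 0.253 (limma adjusted p = 0.147). The region 8121 bp from Slc2a3 (chr6:122810484-122812040), the gene of a glucose transporter, ranked at 85.2 to 95.4 with a difference of −0.15 (limma adjusted p = 0.512). Both regions were thus near the top of the common set in every condition. A region in Mxi1 (chr19:53313739-53314884), a MYC antagonist, ranked at 62.0 to 90.9.

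Of 33 annotated interferon and antigen presentation genes, 4 (Irf1, Irf2, Nlrc5 and Oas3) had 9 distal regions, 3 of them higher in hypoxia, none lower and 6 not past the test (median difference 0.759). Of these 9 regions 6 lay at Irf2. Among all 6372 regions 8.49% were higher. The region 16084 bp from Irf1 (chr11:53794458-53795517), a transcription activator of the interferon response, had rank percentiles of 0.27 and 7.94 in monoculture normoxia and 35.4 and 12.2 in co-culture normoxia. It had 54.0 and 38.7 in monoculture hypoxia and 65.6 and 74.7 in co-culture hypoxia. The groups separated by oxygen, and the difference was 1.66 ± 0.315 (SE; limma adjusted p = 0.000955).

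Irf2, which encodes a related factor that can repress the same targets, was the nearest gene of 6 regions, and all 6 differences were above 0. One (chr8:46842384-46843505) had 13.9 and 16.5 in monoculture normoxia, 81.6 and 81.8 in monoculture hypoxia, 6.54 and 35.1 in co-culture normoxia and 53.5 and 39.0 in co-culture hypoxia. Its difference was 1.39 ± 0.277 (SE; limma adjusted p = 0.0013), with a closer approach of the 2 oxygen levels in co-culture. A second (chr8:46789163-46789910) had a difference of 0.671 (limma adjusted p = 0.0279), which passed in 4 of 8 fits with a library left out, and the other 4 did not pass. The Irf1 call and that of the first Irf2 region held when any library was left out. Regions of 1 gene share a locus and are not independent.

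Of 37 AP-1, NF-kB and inflammation genes, 9 had 18 distal regions, of which 4 ranked higher in hypoxia, 1 lower, and 13 did not pass (median difference 0.354, against −0.003 for all regions, of which 8.49% were higher and 8.79% lower). The region 7893 bp from Nfkbia (chr12:55480615-55481516), the gene of the NF-kB inhibitor IkB alpha, had 26.6 and 30.3 in monoculture normoxia, 78.3 and 82.8 in monoculture hypoxia, 13.8 and 4.85 in co-culture normoxia and 51.3 and 47.1 in co-culture hypoxia. Hypoxic libraries were higher within each culture, with a difference of 1.40 ± 0.258 (SE; limma adjusted p = 0.00076), which held when any library was left out. The other higher regions were nearest Nfkbiz, an NF-kB cofactor (0.826, kept in 5 of 8 such fits), and Fos, an AP-1 subunit (0.515 and 1.03 in 2 regions, kept in 1 and 2 of 8). The lower one lay 53152 bp from Jun, the partner of Fos (−0.583, kept in 4 of 8). The calls near Hk1, P4ha2, Ndrg1, Nfkbiz, Fos and the second Irf2 region were each lost without co-culture hypoxia replicate 1, co-culture normoxia replicate 2 or monoculture hypoxia replicate 2, and several without other libraries too.

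Of 24 myeloid transcription factor genes, 7 (Cebpb, Etv6, Fli1, Ikzf1, Maf, Mef2c and Zeb2) had 19 distal regions, of which none ranked higher in hypoxia, 6 ranked lower and 13 did not pass (median difference −0.213, against −0.003 for all regions, of which 8.79% were lower). The regions that did not pass lay on both sides of 0, with 0.699 at a region in Fli1 (limma adjusted p = 0.0502). The clearest was an intergenic region 147085 bp from Maf (chr8:115555308-115556168), the gene of the macrophage factor c-Maf. It had rank percentiles of 96.2 and 97.4 in monoculture normoxia, 94.0 and 94.8 in monoculture hypoxia, 88.1 and 85.7 in co-culture normoxia and 52.9 and 50.6 in co-culture hypoxia. It was lower in hypoxia within each culture and lower in co-culture at each oxygen level. Its oxygen difference was −0.672 ± 0.159 (SE; limma adjusted p = 0.00489) and its culture difference −1.14 ± 0.159 (SE; limma adjusted p = 0.000346), and both held when any library was left out.

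The other 5 calls were nearest Maf (a second region), Fli1, an ETS factor, Ikzf1, which encodes Ikaros, Mef2c and Zeb2, with differences of −0.781, −0.926, −0.699, −0.71 and −0.752. The region nearest Zeb2 lay 1253250 bp away. These calls remained in 1, 3, 2, 4 and 1 of 8 fits with a library left out. Each was lost without co-culture hypoxia replicate 2 or monoculture hypoxia replicate 1. Of 27 microglia and macrophage marker genes, 6 had 9 distal regions, 1 higher in hypoxia and 2 lower (median difference −0.005), against 8.49% and 8.79% of all regions. The higher one lay 6551 bp from Fcgr1, a high-affinity Fc receptor gene (chr3:96300520-96301630), with 7.04, 1.84, 24.1 and 10.3 in normoxia and 46.4, 43.1, 53.3 and 50.2 in hypoxia. Its difference was 1.34 ± 0.291 (SE; limma adjusted p = 0.00259) and held when any library was left out. Both lower ones were nearest Ptprc, the gene of CD45, at 310864 and 16052 bp from it (−0.65 and −0.856). They were kept in 6 and 2 of the 8 fits, and both were lost without co-culture hypoxia replicate 2 or monoculture hypoxia replicate 1. A region inside Ptprc and another 23234 bp away had differences of 0.066 and −0.049 and did not pass (limma adjusted p = 0.885 and 0.911).

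None of 10 regions near 9 of 25 lipid and lysosome genes passed the oxygen test (median −0.02), against 8.49% higher and 8.79% lower of all regions, among them regions near Lpl, Cd36 and Npc1. Nor did any of 4 regions near the glial genes Nfia and Sox9. With fold enrichment ranked in place of −log10 p, none of the 39 oxygen and culture calls near listed genes passed, while the sign of 389 of all 390 oxygen-called distal regions was the same.

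**Figure D3:**
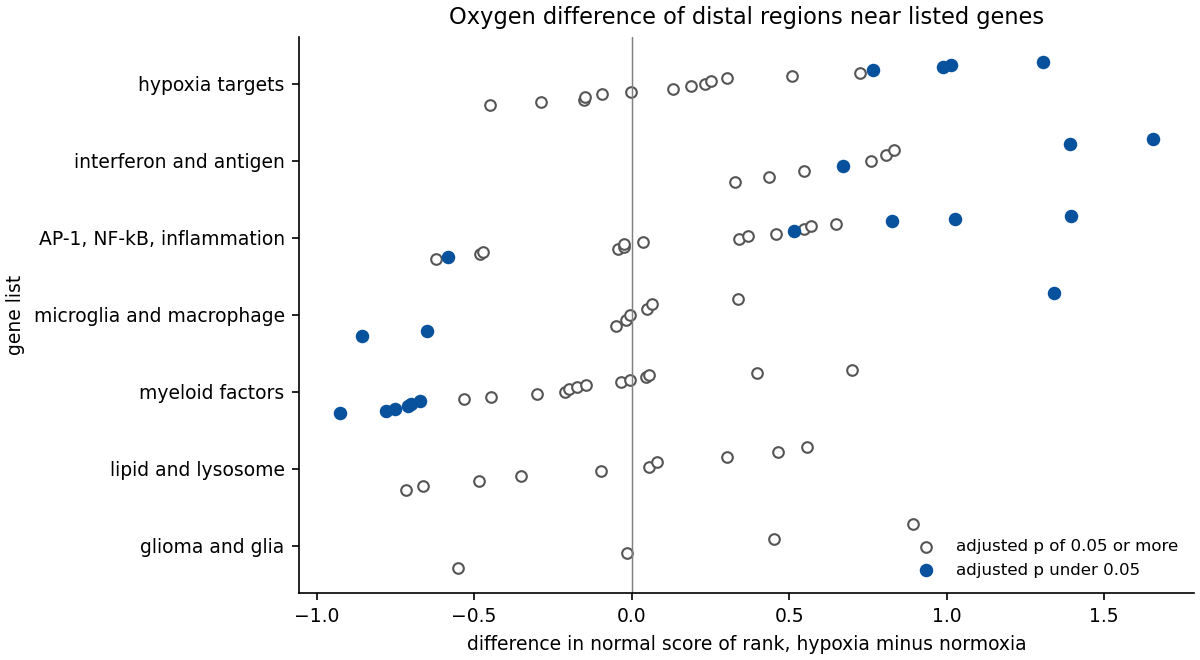
Each point is a distal region whose nearest coding gene is on the list at left, placed by its score difference (hypoxia minus normoxia, x axis) with filled points for limma adjusted p under 0.05; vertical offsets within a list only separate points. Filled points lie right of 0 for hypoxia targets (4) and interferon genes (3), left of 0 for myeloid factors (6), and on both sides for the other 2 lists with calls.

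Many more distal regions ranked lower than higher in co-culture, relative to all regions called in every list. In co-culture 487 regions (17.8%) ranked lower, against 9.67% of all 6372 regions, and 55 (2.01%) ranked higher, against 9.26%. The median score difference was −0.301 for distal regions, 0.006 for all and 0.222 for gene-end regions, of which 120 ranked lower and 530 higher. In 256 of the lower (9.37% of distal regions, against 4.77% of all) and 27 of the higher distal regions (0.989%, against 3.69% of all), the co-culture libraries did not overlap the monoculture ones. Both changes in rank are relative to one another. When the 2731 distal regions were ranked among themselves, 109 ranked lower and 153 higher in co-culture. Of the 487 lower regions 109 passed there, and all 55 of the higher ones did.

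The count of lower regions was 319 without co-culture hypoxia replicate 1, 156 without co-culture hypoxia replicate 2, 275 without co-culture normoxia replicate 2, 240 without monoculture hypoxia replicate 1 and 78 without monoculture hypoxia replicate 2. The count of higher regions was 19, 17, 36, 29 and 11 without the same libraries, 27 without co-culture normoxia replicate 1 and 99 without monoculture normoxia replicate 1. Without monoculture normoxia replicate 2 the counts were 538 and 74. With fold enrichment ranked, limma called 3 regions lower and 0 higher, and the median difference was −0.193. At an unadjusted p under 0.05 the −log10 p ranks gave 811 lower and 120 higher regions. The glial gene ends with a peak, 0 of 24 in each monoculture library and 3 or 4 in each co-culture library, moved with these differences, and their part in the result was not tested.

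The culture difference varied with position. Its median was −0.185 for 712 regions at 1 to 5 kb from a gene end, −0.294 for 1130 at 5 to 20 kb, −0.388 for 804 at 20 to 100 kb and −0.491 for 85 beyond 100 kb. It thus lay lower in each farther band, while the oxygen medians stayed between 0.018 and 0.109. Among 226 regions overlapping the window of a start, 22 ranked higher in co-culture and 1 lower, with a median of 0.18, and among the 221 that held the start base 20 ranked higher and 1 lower. Of all 6372 regions 9.26% ranked higher and 9.67% lower, and of all distal regions 2.01% and 17.8%. The share of higher regions among the 226 was thus near that of all 6372. Among 2410 without such a window, 30 ranked higher and 475 lower, with a median of −0.345. The 226 regions were also wider, at a median of 1070 against 918 bp, and their median minimum percentile was 48.4 against 43.9. Both position and starts are descriptions, and no test of them was made.

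**Figure D4:**
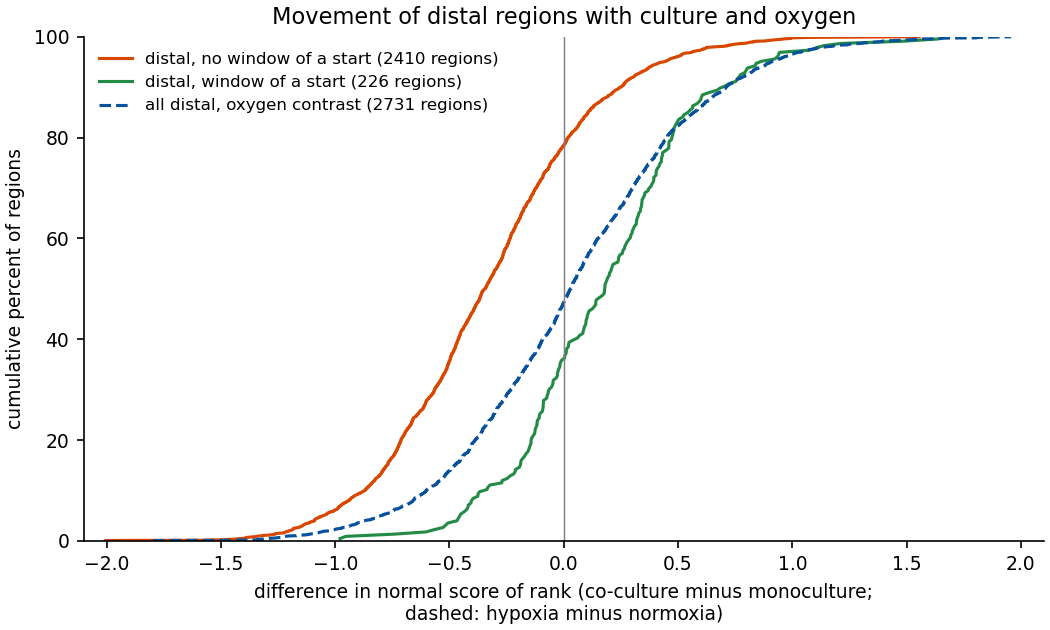
Cumulative percent of regions (y axis) against the difference in normal score of rank (x axis) for 2410 distal regions without and 226 with overlap of an annotated start window (co-culture minus monoculture) and for all 2731 regions under the oxygen contrast (dashed). The medians are −0.345, 0.18 and 0.031, so the curve of regions without a window lies left of the others.

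The regions that rose most in co-culture without overlap lay nearest Bclaf1, Scel, Zfp341, Lmntd1, Myc and Tef. The region in Bclaf1 (chr10:20311844-20312928), the gene of a nuclear protein linked to transcription and apoptosis, holds the start printed above. It had rank percentiles of 16.0, 13.2, 13.4 and 6.1 in the monoculture libraries (normoxia first) and 71.3, 57.3, 69.2 and 75.3 in the co-culture libraries. No co-culture library came near a monoculture one, the difference was 1.68 ± 0.263 (SE; limma adjusted p = 0.000507), and the oxygen difference was −0.026.

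The region in Zfp341 (chr2:154613133-154614087), a zinc finger gene, had at most 2.61 in monoculture and 17.9, 31.1, 18.1 and 36.9 in co-culture. Its call was lost without co-culture hypoxia replicate 2 or monoculture hypoxia replicate 2 (limma adjusted p up to 0.0527). The region in Tef (chr15:81810314-81811785), which encodes a leucine zipper factor with a daily rhythm of expression and whose start window holds the E-box, had 9.52 and 23.7 in monoculture normoxia, 41.4 and 27.3 in monoculture hypoxia, 56.4 and 48.8 in co-culture normoxia and 80.9 and 84.2 in co-culture hypoxia. It rose with both factors, by 1.21 ± 0.251 with co-culture and 0.737 ± 0.251 with hypoxia (SE; limma adjusted p = 0.00299 and 0.0424). The oxygen call did not pass among distal regions alone (limma adjusted p = 0.0503).

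The region nearest Myc (chr15:62078893-62079884), the gene of a growth-promoting transcription factor, lay 88532 bp from it inside the non-coding gene Pvt1. It had 48.9 and 47.0 in monoculture normoxia, 16.3 and 16.1 in monoculture hypoxia, 78.4 and 72.0 in co-culture normoxia and 82.9 and 75.2 in co-culture hypoxia. All co-culture libraries were above all monoculture ones, with a difference of 1.27 ± 0.229 (SE; limma adjusted p = 0.00133). The regions nearest Scel (chr14:103469072-103470027, inside the non-coding gene Gm34907) and Lmntd1 (chr6:145340053-145341976) had at most 6.02 and 17.0 in monoculture and at least 17.3 and 35.2 in co-culture.

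The regions that fell most lay nearest Ttc32, Itgb1, Rrbp1, Itprip, 4930512M02Rik and Mettl15. The region in Rrbp1 (chr2:143951814-143952592), the gene of a ribosome-binding protein of the endoplasmic reticulum, had rank percentiles of 76.7, 75.4, 82.0 and 85.7 in monoculture (normoxia first) and 33.95, 11.83, 30.85 and 21.99 in co-culture. The region 4703 bp from Itgb1 (chr8:128679822-128680951), the integrin beta 1 gene, had 50.7, 23.2, 61.9 and 66.2 in monoculture and 2.45, 3.58, 5.34 and 1.07 in co-culture. Both were near or above the middle of the common set in most monoculture libraries and low in every co-culture library. Their differences were −1.57 ± 0.243 and −1.92 ± 0.314 (SE; limma adjusted p = 0.000507 and 0.000598).

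The region 92001 bp from Ttc32 (chr12:9128395-9129590) had the largest fall of this group, −2.00 ± 0.416 (SE; limma adjusted p = 0.00304), from 32.6 to 47.1 in monoculture to 0.08 to 18.5 in co-culture. The region in Itprip (chr19:47910223-47910921) went from 45.8 to 57.1 in monoculture to 0.88 to 16.9 in co-culture. The region 24173 bp from 4930512M02Rik (chr11:11564177-11565050) went from 22.7 to 74.1 in monoculture to 2.08 to 15.5 in co-culture. The region 512541 bp from Mettl15 (chr2:108578901-108579756) had at most 13.3 in co-culture and at least 15.9 in monoculture, and its call was lost without co-culture hypoxia replicate 1 or monoculture hypoxia replicate 2 (limma adjusted p up to 0.0647). All 12 regions named for a culture difference also passed when distal regions were ranked among themselves. With fold enrichment ranked, only the region near Itgb1 of the 12 passed (limma adjusted p = 0.0377). The difference then was 0.346 at Myc (limma adjusted p = 0.574) and 1.06 at Bclaf1 (limma adjusted p = 0.104).

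**Figure D5:**
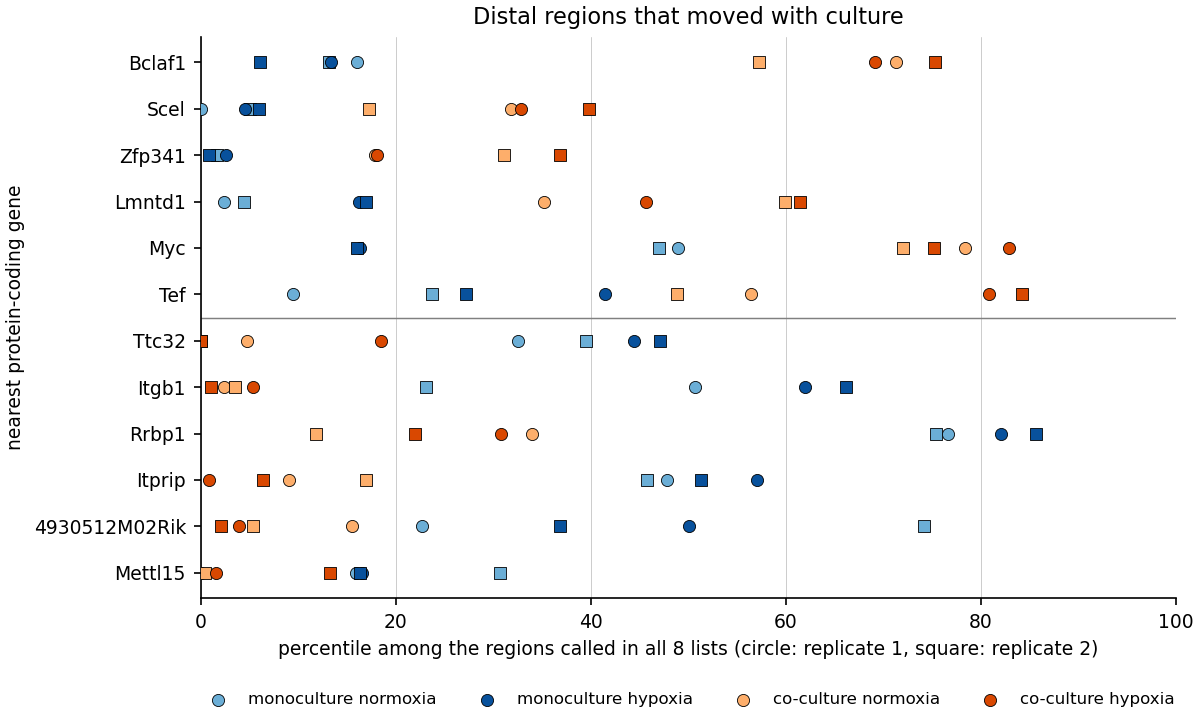
As in the plot of regions that moved with oxygen, for the 12 distal regions named for a culture difference (x axis, percentile among the 6372 regions called in all 8 lists). In the upper 6 rows the co-culture libraries (orange) lie right of the monoculture ones (blue), and in the lower 6 rows left of them; for Bclaf1 monoculture is at 6.1 to 16.0 and co-culture at 57.3 to 75.3.

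Among listed genes, the myeloid factors had 6 of 19 regions lower in co-culture and none higher (median −0.406, against −0.301 for all distal regions). Of all 6372 regions 9.67% were lower and 9.26% higher, and of distal regions 17.8% were lower. Those nearest Maf (above), Mef2c (chr13:83565754-83566700, −1.28) and Zeb2 (chr2:46370692-46372038, −1.17) also passed among distal regions alone, the last 2 losing their call without monoculture hypoxia replicate 2. Other lower regions, nearest Fli1, Cx3cr1, the fractalkine receptor gene, Egln3, an oxygen-sensing hydroxylase gene, Nfia and Jun, and the other called regions nearest Mef2c and Zeb2, did not pass there. These calls remained in 1 to 4 of 8 fits with a library left out, and each was lost without monoculture hypoxia replicate 2 (limma adjusted p up to 0.212 over the 8 fits). Of 17 regions near hypoxia targets, 2 ranked higher in co-culture and 2 lower, against 9.26% and 9.67% of all regions. The lower ones lay near Egln3 and Bhlhe40, the gene of a transcriptional repressor. The lower region near Bhlhe40 (chr6:108695430-108696400, −1.39) did not pass among distal regions alone, while a higher one near the same gene (chr6:108709032-108710223, 0.94) did. These 2 calls remained in 5 and 3 of 8 fits with a library left out, each lost without co-culture hypoxia replicate 1, co-culture normoxia replicate 2 or monoculture hypoxia replicate 2. The region inside Hif1a (chr12:73907444-73908295), the gene of the oxygen-regulated HIF subunit, had 17.1 and 18.8 in monoculture normoxia, 37.0 and 35.1 in monoculture hypoxia, 49.7 and 68.5 in co-culture normoxia and 72.9 and 78.2 in co-culture hypoxia. It was higher in every co-culture library, by 1.10 ± 0.244 (SE; limma adjusted p = 0.00433), also when any library was left out. None of the 10 regions near lipid and lysosome genes passed the culture test.

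Some regions had both an oxygen and a culture call. Of the distal regions 64 (2.34%) were lower with both hypoxia and co-culture, against 1.68% of all 6372 regions, and 17 (0.622%) were higher with both, against 2.42%. A further 32 (1.17%) were higher with hypoxia and lower with co-culture, against 0.534%, and none was lower with hypoxia and higher with co-culture, against 0.204%. One region each near Maf, Mef2c, Zeb2 and Jun was lower with both, and the culture calls of these held in 8, 2, 7 and 4 of 8 fits with a library left out. One region each near Irf1, Fos and Tef was higher with both, with culture calls held in 2, 4 and 8 of 8. Among distal regions alone, the oxygen calls at Fos and Tef (limma adjusted p = 0.0511 and 0.0503) and the culture calls at Mef2c and Jun (limma adjusted p = 0.319 and 0.342) did not pass. Of 2 regions near Nfkbia and 6 near Irf2, 1 each was higher with hypoxia and lower with co-culture. Both of these culture calls held in 3 of 8 fits and did not pass among distal regions alone (limma adjusted p = 0.161 and 0.296).

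No distal region had an oxygen difference that differed between the cultures by limma, in either direction. The share called was 0.0% of all 6372 regions for a more positive difference in co-culture and 0.0% for a more negative one. At an unadjusted p under 0.05 there were 76 and 195 such distal regions, and a limma fit on log2 of the −log10 p called 2 and 10. Without monoculture normoxia replicate 1 the counts were 7 and 53, without monoculture normoxia replicate 2 they were 1 and 6, and without co-culture hypoxia replicate 1 they were 0 and 1. A count of 0 at this threshold does not show that the oxygen responses of the 2 cultures were alike.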

How the data were processed

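ATAC-seq was made on 8 BV2 libraries, 2 in each of 4 groups, and the authors deposited a narrowPeak list for each, so replicates were not pooled for calling. Per the submitters' processing notes, Trimmomatic 0.36, HISAT2 2.1.0, Picard, SAMtools, deepTools and MACS2 2.1.1.2 were used with build mm10; their settings and any Tn5 shift are not given in the sources used here. The deposited values per peak are a score, a fold enrichment (a ratio to local background), a −log10 p and a −log10 q. They depend on each library's depth, and read totals were not used here.

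Genes were those of a RefSeq table of GRCm38.p6 without strand (49550 genes, 21627 protein-coding). The highest −log10 p in a region was ranked among the 6372 regions called in all 8 lists, turned into normal scores and fitted with limma 3.58.1 in R 4.3.3: group means, trended empirical Bayes, 4 residual and 23.07 prior degrees of freedom, 3 contrasts, Benjamini-Hochberg adjustment over 6372 regions. The method was tested on simulated data for the oxygen contrast only, where most of the regions made to change went uncalled, so a region that did not pass may have changed. P-values set a difference against the spread between replicate libraries. With 4 residual and 23.07 prior degrees of freedom, that spread was drawn more from all 6372 regions than from the region itself. What replicates share is not stated. The members, the gene lists, the rules for named regions and the tests were chosen with earlier results of these data known. Regions were named by these rules: the 10 with the highest minimum percentile, 6 per direction and contrast among called regions without overlap, up to 3 per gene list, 5 chains, the 5 farthest from genes and 2 on each side of the 1 kb limit. Of these, 1 region is not reported here. Motif and GC counts over all regions were not run, since no genome sequence was used. Python 3.11.15, pandas 2.3.3 and matplotlib 3.10.9 were used. Alternatives are given in the closing section.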

Additional observations from a re-analysis of the deposited data

How the results depend on the processing

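With the −log10 p on a log2 scale, 86 distal regions were higher in co-culture, and the oxygen difference was more positive in co-culture in 2 and more negative in 10. With fold enrichment ranked, 20 and 10 were higher and lower in hypoxia and 0 and 3 in co-culture. Ranked among distal regions alone, 153 and 109 were higher and lower in co-culture. With lists cut to the length of the shortest, 1234 regions met the rule, with 103 and 80 higher and lower in hypoxia and 26 and 271 in co-culture. When a peak had to cover 50% of a region, 1448 met it, with 119, 90, 31 and 273 in the same order. With 5 kb in place of 1 kb, 29 were higher in co-culture. Leaving out 1 library gave 89 to 317 higher and 63 to 247 lower in hypoxia, 11 to 99 higher and 78 to 595 lower in co-culture, and 0 to 7 and 0 to 53 for the interaction. Such fits have fewer samples. Without the variance trend, 39 and 316 were higher and lower in co-culture. A fit with replicate number as a replicate block called 228 and 168 for oxygen and 56 and 494 for culture. Deviations of same-numbered libraries correlated at −0.04 to 0.176 over the 6 pairs of groups, so the numbers were not taken as pairs. None of the 24 regions named for a move or the 39 calls near listed genes changed sign under an alternative that gave a value. Of the 24, 5 passed with fold enrichment ranked. Of the 39, 23 passed without the variance trend, 26 ranked among distal regions alone, 0 with fold enrichment ranked and 10 to 35 with a library left out, fewest without monoculture hypoxia replicate 2. Depth limits presence: a region missing from the shortest list may be open below its threshold. The stated counts apply to ranks, not amounts of open chromatin.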
